A study of Mus musculus with 12 samples.

Results

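Rufy3, Rgs4, Ppp1r17, Ptn, Npr2 and Tox3 were 6 genes chosen from the 18193 genes on the array because they were among the largest rises after 48 h of Neurog1 induction in mouse embryonic stem (ES) cells. The values that chose them were those of the 48 h and uninduced arrays, and the timing between 24 h and 48 h was also known when they were chosen, so these differences are given below as a description with no test. Each gene was read on the probe set that named it alone and had the highest mean over the 12 arrays. The ES cell line, 129P2/OlaHsd (E14, Ainv15) by genotype, carried a tetracycline-responsive Neurog1 transgene in all 4 groups. All groups grew in serum with leukaemia inhibitory factor, puromycin and G418, and doxycycline at 1 ug/ml was given for 24, 48 or 72 h to 3 groups and withheld from the other. Each group had 3 arrays, labelled as biological replicates. The labels do not say that the arrays came from separate cultures, so p-values measure the spread between these arrays, which may be technical. Uninduced cells were taken at 0 h alone, so that in comparisons with them the effects of the transgene, of doxycycline and of days in culture cannot be told apart. How many clones the line came from is not stated in the labels.

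Neurog1 is a proneural transcription factor of the basic helix-loop-helix class, which binds short DNA motifs called E-boxes and drives progenitors towards a neuronal fate, in the embryo chiefly that of sensory neurons. The 6 genes act at different levels of a young neuron. Ptn (pleiotrophin) is a secreted heparin-binding growth factor that promotes neurite outgrowth. Npr2 is the receptor for C-type natriuretic peptide and makes cyclic GMP (cGMP), and in embryonic sensory axons it is needed for the branching of the axon at the spinal cord. Rgs4 shortens signalling by Gi and Gq proteins by speeding up their GTP hydrolysis. Ppp1r17, also known as G-substrate, is phosphorylated by cGMP-dependent protein kinase and then inhibits protein phosphatases 1 and 2A. Rufy3 is a RUN-domain adaptor of growing axons, and Tox3 is a nuclear HMG-box protein that acts in calcium-dependent transcription in neurons.

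The promoter windows of the genes are shown because the induced factor belongs to the class that binds E-boxes. RefSeq windows of 300 bases (250 before and 50 after the start, GRCm38.p6) were matched by symbol for 5 of the 6 genes, with 6 windows in all. E-boxes (CANNTG, searched on both strands) and TATA boxes (TATAAA, on the gene's strand) are in capitals.
Rgs4, chr1:169747593-169747892, minus strand: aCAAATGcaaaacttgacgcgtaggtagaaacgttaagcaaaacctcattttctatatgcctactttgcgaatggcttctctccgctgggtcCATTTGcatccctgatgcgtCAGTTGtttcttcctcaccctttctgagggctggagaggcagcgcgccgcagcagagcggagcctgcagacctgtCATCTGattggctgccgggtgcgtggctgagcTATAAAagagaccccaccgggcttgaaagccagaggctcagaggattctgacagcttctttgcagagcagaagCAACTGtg
Rufy3, second start, chr5:88583263-88583562, plus strand: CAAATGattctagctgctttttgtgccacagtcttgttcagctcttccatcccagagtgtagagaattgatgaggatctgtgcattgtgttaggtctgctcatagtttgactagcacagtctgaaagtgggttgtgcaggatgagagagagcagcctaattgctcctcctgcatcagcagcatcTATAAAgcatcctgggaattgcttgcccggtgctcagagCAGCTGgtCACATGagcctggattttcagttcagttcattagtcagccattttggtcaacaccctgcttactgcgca
Npr2, chr4:43631685-43631984, plus strand: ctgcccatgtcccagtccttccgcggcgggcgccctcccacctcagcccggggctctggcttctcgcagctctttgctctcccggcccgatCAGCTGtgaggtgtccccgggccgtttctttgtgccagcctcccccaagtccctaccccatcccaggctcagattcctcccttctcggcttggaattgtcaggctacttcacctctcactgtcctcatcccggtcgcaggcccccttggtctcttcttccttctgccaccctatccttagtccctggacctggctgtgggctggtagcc
Tox3, chr8:90348203-90348502, minus strand: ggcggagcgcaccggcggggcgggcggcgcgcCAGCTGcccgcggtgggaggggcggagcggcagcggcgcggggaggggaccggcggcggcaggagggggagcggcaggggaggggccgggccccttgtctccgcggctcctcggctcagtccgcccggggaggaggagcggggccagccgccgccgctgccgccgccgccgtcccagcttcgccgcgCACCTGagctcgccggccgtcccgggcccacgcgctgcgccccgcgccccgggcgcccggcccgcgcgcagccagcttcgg
Ptn, chr6:36810130-36810429, minus strand: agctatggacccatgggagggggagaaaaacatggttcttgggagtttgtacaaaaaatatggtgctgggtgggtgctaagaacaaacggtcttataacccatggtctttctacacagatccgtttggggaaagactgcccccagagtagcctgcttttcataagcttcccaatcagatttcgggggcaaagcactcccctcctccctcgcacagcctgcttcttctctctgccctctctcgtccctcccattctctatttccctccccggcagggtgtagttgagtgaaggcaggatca
The Rgs4 window held 5 E-boxes and a TATA box 31 bases before the start, and its CATCTG, 63 bases before the start, is CAGATG on the other strand. The second Rufy3 window held 3 E-boxes, with CAGCTG at 27 bases before the start, and a TATA box at 66 bases. The other Rufy3 window, not printed, held a CAGCTG at 42 bases before the start. Npr2 had a CAGCTG at 159 bases before the start, and Tox3 had a CAGCTG at 218 and a CACCTG at 31 bases. The Ptn window held no E-box in these letters. Over all 32851 windows of this length 72.3% held at least 1 E-box, with a mean of 1.39 a window. CAGCTG was in 16.3%, CAGATG in 17.2% and TATAAA in 8.32% of them, and these 2 hexamers are forms of CANNTG. GC content ran from 47.7% in the second Rufy3 window to 85.3% in the Tox3 window, against a median of 52.7% over all windows. A match to these letters is a description of the sequence and was not measured as a binding site.

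The arrays gave 1 MAS5 signal, an intensity on a linear scale, for each of 45101 probe sets. The median signal of an array was between 19.5 and 32.8. Neurog1 itself gave 4.53 to 18.7 in uninduced cells, 756 to 974 at 24 h, 889 to 1152 at 48 h and 465 to 783 at 72 h. Its 72 h arrays were thus all below its 48 h arrays. Differences below are on the log2(signal + 16) scale with the standard error (SE) of the limma fit and n = 3 arrays a group, and the added 16 understates the change of dim genes. A gene was called at a limma adjusted p under 0.05 over the 11806 genes tested, and all 6 genes were among these. Within groups, induced 24 h replicate 1 correlated at 0.812 and 0.787 with the other 24 h arrays over the tested genes, while all other pairs reached 0.961 to 0.988. The number of arrays limits the precision. In these bulk samples, fewer cells of a type and less RNA per cell cannot be told apart.

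The ES cell label was checked on marker genes. All 8 ES cell markers, among them Pou5f1 and Nanog, were on the array and fell by 48 h, and 7 of 8 neuron markers, among them Tubb3 and Dcx, rose. Summed ES cell marker signals were 37944 to 45168 in uninduced cells and 3020 to 5895 at 48 h, and summed neuron marker signals were 4057 to 4763 and 10919 to 15990. Most of the uninduced neuron sum was Stmn2, the neuron marker that was not called, at 3220 to 3650 in uninduced cells, 686 to 1650 at 24 h and 2530 to 4150 at 48 h. Tubb3 was at 332 to 504 in uninduced cells and at 3100 to 3780 at 48 h. Of glial and oligodendrocyte markers, 3 of 7 on the array were tested, 1 rose and 1 fell, the sums were 154 to 206 and 187 to 382, and S100b and Aqp4 were below the array median on every array. Of fibroblast markers 3 were tested, 2 rose and 1 fell, with sums of 130 to 175 and 145 to 254 and Dcn below the median on every array. Of mesoderm and muscle markers 2 were tested and 0 called, with sums of 57 to 106 and 66 to 102 and Myod1, Myog and Tnnt2 below the median on every array. Of endoderm markers 3 were tested and 1 rose, with sums of 42 to 134 and 198 to 302 and Afp below the median on every array.

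On the probe sets used, the 6 genes were close to the floor of the arrays before induction. Of the 18 uninduced values there, 3 exceeded the median signal of their array. Some other Rufy3 probe sets, at 28.4 to 77.7, and a Ptn probe set, at 20.5 to 43.6, exceeded it on all 3 uninduced arrays. The remaining unused probe sets did so on none. After 48 h the lowest value on the probe sets used was 955. There all 3 arrays of each gene at 48 h and at 72 h lay above all 3 uninduced arrays. Such a separation was seen in 35.4% of all tested genes at 48 h and in 35.6% at 72 h, and the choice of the genes used the 48 h arrays. All comparisons with uninduced cells share the same 3 control arrays. Among the tested genes, the 48 h differences had rank 4 for Rgs4, 6 for Ppp1r17, 8 for Rufy3, 9 for Npr2, 10 for Tox3 and 17 for Ptn, which was at 5.35. The gene just below Ptn and outside the set was Spsb4 at 5.32, and genes outside the set also lay between the members, with Hes5 at 6.47 above all of them.

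Ptn, the secreted factor, gave signals of 15.8, 20.5 and 25.3 in uninduced cells, 31.4, 120 and 59.5 at 24 h, 2035, 1530 and 1002 at 48 h, and 1683, 1658 and 2239 at 72 h. It was low but above every uninduced array at 24 h, high at 48 h, and the 48 h and 72 h arrays overlapped. Against uninduced cells it was higher by 1.11 ± 0.36 at 24 h, by 5.35 ± 0.36 at 48 h and by 5.68 ± 0.36 at 72 h. A second Ptn probe set was 4.47 ± 0.35 higher at 48 h, but its 24 h and uninduced arrays overlapped (0.35 ± 0.35). The third Ptn probe set differed by 0.13 ± 0.26 at 48 h, with overlapping arrays throughout.

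Npr2, the natriuretic peptide receptor, gave 12.9, 2.45 and 16 in uninduced cells, 122, 160 and 85.6 at 24 h, 1294, 1361 and 1005 at 48 h, and 1343, 1316 and 1562 at 72 h. Its 24 h arrays were intermediate, apart from the arrays of both neighbouring times, and its 48 h and 72 h arrays overlapped. The differences from uninduced cells were 2.39 ± 0.27 at 24 h, 5.57 ± 0.27 at 48 h and 5.78 ± 0.27 at 72 h.

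Rgs4, the regulator of G protein signalling, gave 1.28, 8.43 and 12.9 in uninduced cells, 0.818, 70.2 and 0.755 at 24 h, 1442, 1271 and 1381 at 48 h, and 1072, 1091 and 1305 at 72 h. On this probe set replicate 2 alone was above the uninduced arrays at 24 h, and the other 2 arrays were at the bottom of the range. The same array was the highest of the 24 h group on all 3 Rgs4 probe sets, at 70.2, 51.3 and 22.3. On the brightest probe set it differed from uninduced cells by 0.33 ± 0.50 at 24 h and 5.90 ± 0.50 at 48 h. The other 2 probe sets were 4.49 ± 0.40 and 5.22 ± 0.31 higher at 48 h. On the latter, all 24 h arrays (2.91, 22.3 and 9.12) lay above all uninduced ones (1.02, 2.29 and 1.12), by 0.59 ± 0.31. Each of these values was below the median of its array.

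Ppp1r17, the phosphatase inhibitor, gave 2.93, 6.53 and 18.0 in uninduced cells, 24.0, 53.1 and 15.0 at 24 h, 1338, 1323 and 1180 at 48 h, and 1916, 2189 and 1718 at 72 h. The 24 h arrays overlapped the uninduced ones, while the 48 h arrays lay below every 72 h array. The differences from uninduced cells were 0.85 ± 0.30 at 24 h, 5.73 ± 0.30 at 48 h and 6.32 ± 0.30 at 72 h.

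Rufy3, the axonal adaptor, gave 39.3, 12.6 and 0.655 in uninduced cells, 0.705, 18.4 and 22.1 at 24 h, 1697, 1837 and 955 at 48 h, and 3782, 3419 and 3136 at 72 h. It did not separate 24 h from uninduced cells, and every 72 h array was above every 48 h array. The differences from uninduced cells were -0.09 ± 0.43 at 24 h, 5.61 ± 0.43 at 48 h and 6.86 ± 0.43 at 72 h.

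Rufy3 had 6 probe sets. Beside the brightest, 3 others were higher at 48 h than in uninduced cells, by 2.53 ± 0.35, 3.13 ± 0.30 and 3.06 ± 0.38. On these 3 the 72 h arrays also lay above all 48 h arrays, by 1.63, 1.11 and 1.90. Another probe set was 1.23 ± 0.29 higher at 48 h but had overlapping 48 h and 72 h arrays (-0.39), and the last was too dim to be tested. Which Rufy3 transcripts each probe set reads was not analysed here. With the mean of all probe sets of a gene in place of the brightest, the 48 h difference was 2.53 for Rufy3 and 3.32 for Ptn.

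Tox3, the HMG-box protein, gave 7.80, 37.0 and 12.7 in uninduced cells, 370, 617 and 400 at 24 h, 1501, 1976 and 1167 at 48 h, and 1883, 1884 and 1199 at 72 h. It was already far above every uninduced array at 24 h, and the 48 h and 72 h arrays overlapped. The differences from uninduced cells were 3.82 ± 0.34 at 24 h, 5.53 ± 0.34 at 48 h and 5.63 ± 0.34 at 72 h.

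**Figure D1:**
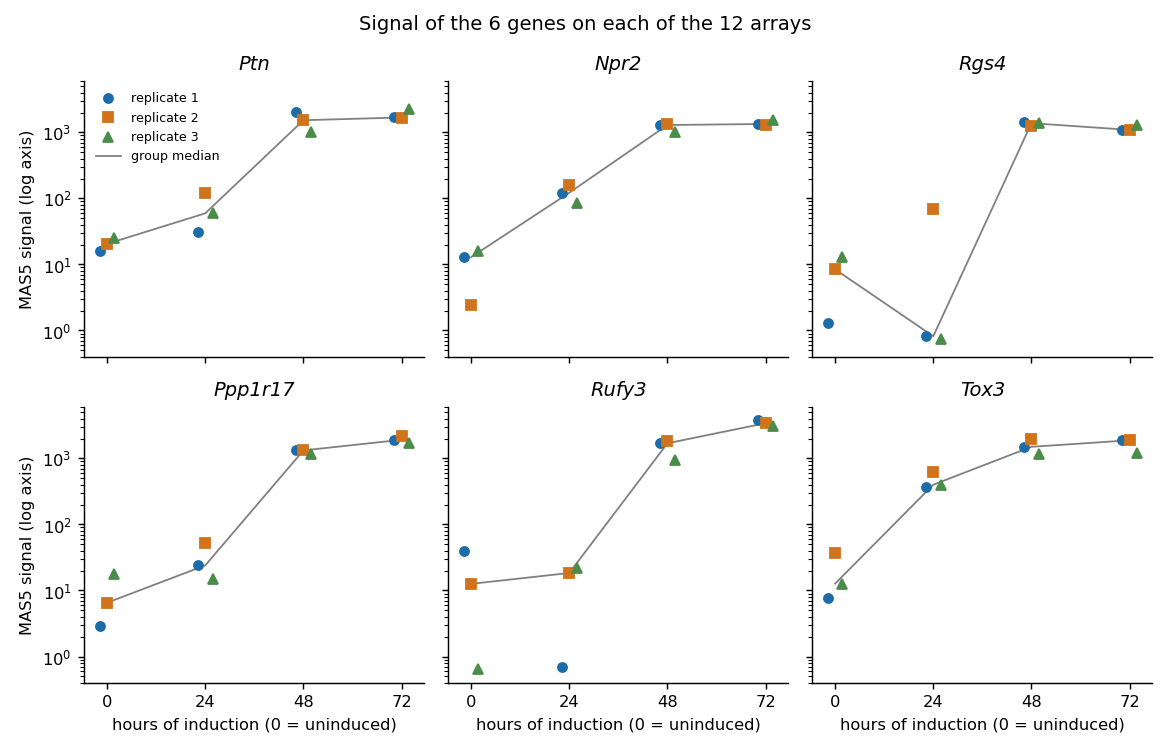
MAS5 signal of the 6 genes (log axis) on each of the 12 arrays against hours of induction, with 0 for uninduced cells, 1 symbol per replicate number and a line through the group medians. Rgs4, Ppp1r17 and Rufy3 were at 70.2 or below at 24 h and at 955 or above at 48 h, while Tox3 was at 370 to 617 at 24 h.

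**Figure D2:**
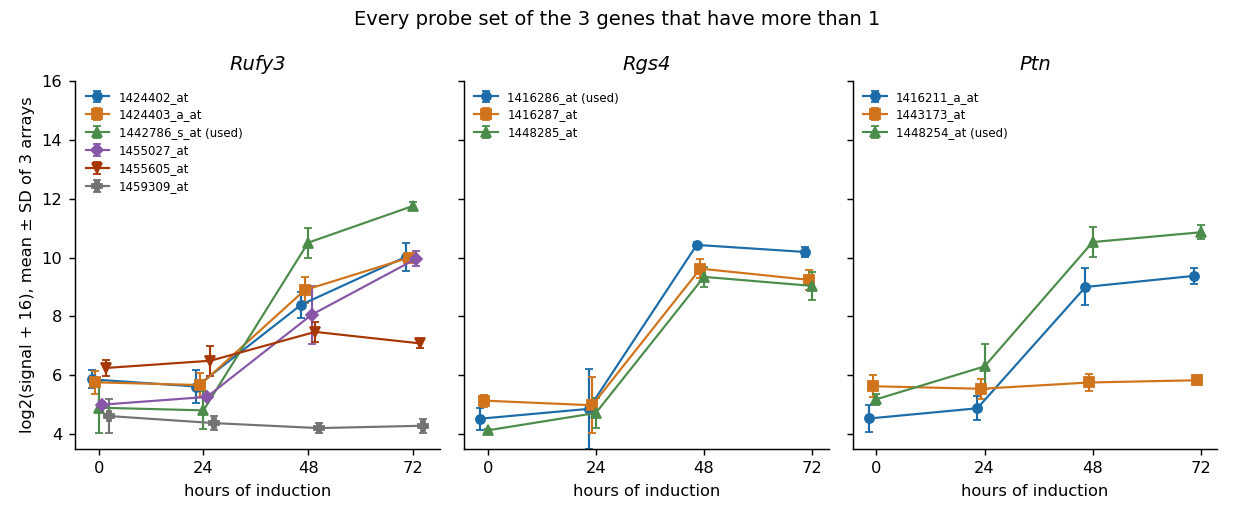
Mean log2(signal + 16) of every probe set of Rufy3, Rgs4 and Ptn at each time, with bars of 1 SD over 3 arrays. Of the Rufy3 probe sets 4 were higher at 72 h than at 48 h on every array, and 1 Ptn probe set stayed within 20.5 to 51.1 in signal.

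The step between 24 h and 48 h was large for 4 of the genes and smaller for the others. Rufy3 was higher at 48 h than at 24 h by 5.70 ± 0.43, Rgs4 by 5.57 ± 0.50, Ppp1r17 by 4.88 ± 0.30 and Ptn by 4.23 ± 0.36. These were the differences of rank 1, 2, 3 and 5 among the tested genes for that interval. The rank of Rufy3 rests on its brightest probe set, since its others gave 2.78, 3.23, 2.80, 0.98 and, on the one too dim to be tested, -0.17. With the mean of all probe sets the step was 2.55 for Rufy3 and 2.86 for Ptn. Npr2 was higher by 3.18 ± 0.27 and Tox3 by 1.71 ± 0.34, at rank 38 and 386. All 6 genes had every 48 h array above every 24 h array, as did 19.7% of tested genes, and the label of the set drew on this interval. Since the 24 h signals of several genes were at the floor, the size and rank of these steps depend on the added constant and are not measured folds. With 1 in place of 16 the steps were 3.71 for Rufy3, 5.91 for Rgs4, 5.52 for Ppp1r17, 4.56 for Ptn, 3.34 for Npr2 and 1.75 for Tox3, and with 64 they were 4.29, 4.11, 3.85, 3.56, 2.79 and 1.61 in the same order of genes. With 1 a different Rufy3 probe set had the highest mean and gave the Rufy3 value.

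On the log2 scale the description of a jump on the second day therefore did not hold for Tox3. Its larger log2 step was on the first day, at rank 17 of all tested genes for 24 h against uninduced cells. Of the 48 h log2 difference, 69.0% was reached at 24 h for Tox3, 42.9% for Npr2, 20.9% for Ptn, 14.9% for Ppp1r17, 5.6% for Rgs4 and -1.6% for Rufy3. On the linear scale Tox3 had reached 29.0% of its 48 h rise in signal at 24 h, and the other 5 genes 9.3% or less. On that scale the larger step of Tox3 was thus on the second day. Rufy3 had reached 43.1% of its 72 h rise in signal at 48 h, so its larger linear step was on the third day. Among the 77 genes with a 48 h difference of at least 4, the median share was 39.1% with quartiles of 28.8% and 61.6%. Counted from the lowest share, Rufy3 had rank 1 of the 77, Rgs4 rank 3, Ppp1r17 rank 7 and Ptn rank 12, whereas Npr2 was at rank 43 and Tox3 at 65. The set was labelled for its second-day step, so low ranks were in part set by the choice. For Npr2 the order of the steps depended on the added constant, since with 1 in place of 16 its step to 24 h was 3.68 and its step to 48 h 3.34. At 24 h, 3 of the 6 genes (Ptn, Npr2 and Tox3) had all arrays above all uninduced arrays, against 17.4% of tested genes.

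With induced 24 h replicate 1 left out, the step from 24 h to 48 h was 5.33 for Rufy3, 5.18 for Rgs4, 4.81 for Ppp1r17, 3.87 for Ptn, 3.20 for Npr2 and 1.57 for Tox3. The 24 h differences from uninduced cells were then 0.28 ± 0.39 for Rufy3, 0.72 ± 0.47 for Rgs4, 0.92 ± 0.30 for Ppp1r17, 1.48 ± 0.29 for Ptn, 2.38 ± 0.26 for Npr2 and 3.96 ± 0.33 for Tox3. The direction of the 24 h value of Rufy3 and of Rgs4 depended on single arrays, and both were smaller than their SE with all arrays. Within the 24 h group, replicate 2 was the highest array for 5 of the 6 genes, all but Rufy3.

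**Figure D3:**
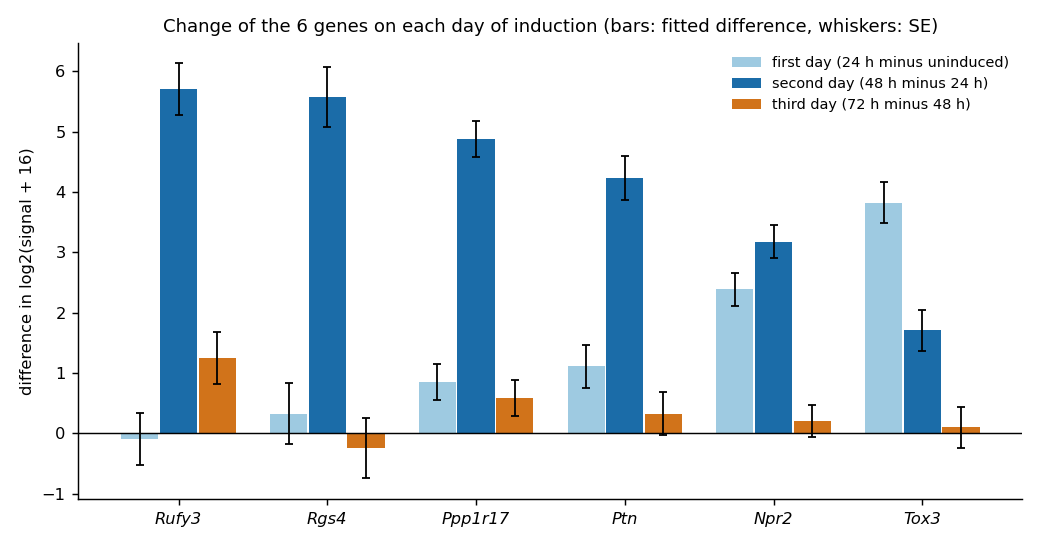
Fitted difference in log2(signal + 16) between consecutive times for each gene, with whiskers of 1 SE (n = 3 arrays a group). With the added 16 the second-day bar is the tallest for 5 genes, from 5.70 for Rufy3 down to 3.18 for Npr2 (for which 1 in place of 16 turns the order), and the first-day bar, at 3.82, is the tallest for Tox3.

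The 72 h arrays were not named in the rule for the genes. Genes and comparisons were, however, chosen with earlier results of these data known. The 72 h arrays also counted in the choice of each gene's probe set by its mean over all arrays. Each test below shares its other side with arrays that the choice of the genes used. Since the timing was known when the genes were chosen, higher values at 72 h than at 24 h were largely set by these choices. The p-values against 24 h are thus no independent support for a held level. Against 24 h all 6 genes were called higher at 72 h, where 16.2% of all tested genes were called higher. Rufy3 rose by 6.95 (95% interval 6.01 to 7.88, limma adjusted p = 1.13e-06). Ppp1r17 rose by 5.47 (4.80 to 6.13, limma adjusted p = 5.3e-07), Rgs4 by 5.33 (4.26 to 6.41, limma adjusted p = 1.04e-05) and Ptn by 4.56 (3.78 to 5.35, limma adjusted p = 4.25e-06). Npr2 rose by 3.39 (2.80 to 3.99, limma adjusted p = 4.69e-06) and Tox3 by 1.81 (1.07 to 2.55, limma adjusted p = 0.00165). For each gene every 72 h array was above every 24 h array, as in 22.6% of tested genes. The median difference of the 6 genes was 4.94, against -0.01 over all tested genes. The size for Rufy3 rests on its brightest probe set, since its others gave 4.41, 4.33, 4.70, 0.59 and, on the one too dim to be tested, -0.09. With 24 h signals of several genes at the floor, these sizes and intervals also depend on the added constant. For Rufy3, 1 in place of 16, which changed the probe set, gave 4.84, and 64 gave 5.5.

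Between 48 h and 72 h none of the 6 genes was called in either direction, in a comparison in which limma called 0.644% of tested genes higher and 0.152% lower. The median difference of the 6 genes was 0.27, against -0.03 over all tested genes. Rufy3 had the largest difference, 1.25 (95% interval 0.31 to 2.18), or 2.37-fold, with an unadjusted limma p of 0.0129 and an adjusted p of 0.288. It was the single gene of the 6 with an unadjusted p under 0.05. Ppp1r17 differed by 0.59 (-0.07 to 1.25, limma adjusted p = 0.702), and these 2 genes were the ones whose 72 h arrays all lay above the 48 h arrays, as in 11.5% of tested genes. Across the alternative settings the limma adjusted p ran from 0.00161 to 0.913 for Rufy3 and from 0.00515 to 1 for Ppp1r17. It passed for both with array weights (1.12, adjusted p = 0.00161, and 0.70, adjusted p = 0.00515) and with only the 6 arrays compared (adjusted p = 0.0198 and 0.0377), and for Rufy3 with a pseudocount of 64 (1.22, adjusted p = 0.0295). The estimation of the array weights stopped before it converged.

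For the remaining 4 genes the 48 h and 72 h arrays overlapped. The difference from 48 h was 0.33 for Ptn (95% interval -0.45 to 1.11), 0.21 for Npr2 (-0.38 to 0.81), 0.10 for Tox3 (-0.64 to 0.83) and -0.24 for Rgs4 (-1.32 to 0.84), each with a limma adjusted p of 1. These intervals, from -1.32 to 1.11 at their widest, do not show that the levels were equal. Their SE was pooled over the arrays of all groups, so it also reflects scatter at 24 h and in uninduced cells. For Rgs4 the SE was 0.5 in the main fit and 0.23 without induced 24 h replicate 2. With only the 6 arrays compared it was 0.12 (-0.24, limma adjusted p = 0.347). The SE then also fell for Ptn (0.24 against 0.36), Npr2 (0.14 against 0.27) and Tox3 (0.23 against 0.34). None of these genes was called there. Of the 72 h rise in signal over uninduced cells, 43.1% had been reached at 48 h for Rufy3, 65.8% for Ppp1r17, 81.6% for Ptn, 86.6% for Npr2, 93.4% for Tox3 and 118.2% for Rgs4. Induced 48 h replicate 3 was the lowest 48 h array for 5 of the 6 genes, all but Rgs4, and it also had the lowest summed neuron marker signal of its group, 10919 against 15590 and 15990. The part of neuronal content in these differences was not tested. Without that array the difference was 0.95 for Rufy3 (limma adjusted p = 0.913), 0.53 for Ppp1r17, 0.06 for Ptn, 0.08 for Npr2, -0.09 for Tox3 and -0.23 for Rgs4.

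Over the 12 arrays the log2 signals of the 6 genes went together, with Pearson's r from 0.779 between Rufy3 and Tox3 to 0.990 between Ptn and Ppp1r17. The 4 lowest values were those of Tox3 with Rufy3, Rgs4 (0.815), Ppp1r17 (0.854) and Ptn (0.876), while Tox3 with Npr2 gave 0.942. The arrays share their groups, and these values describe the courses only. The genes outside the set with the course most like the mean of the 6 were Scg3 and Chgb (r = 0.997 each), which encode granins of dense-core vesicles, then Armh4 and App (0.993 each), Cdh2 (0.991), Elavl3, Gdap1 and Dpp6 (0.990 each). App encodes the amyloid precursor protein, Cdh2 encodes N-cadherin, Elavl3 a neuronal RNA-binding protein and Dpp6 a subunit of potassium channels. Scg3 gave signals of 1.16 to 11.3 in uninduced cells, 34.1 to 76.7 at 24 h, 712 to 958 at 48 h and 910 to 1300 at 72 h. Of 11411 genes compared, 283 had an r of 0.95 or more. The order at the top was loose, since 5 of these 8 genes were among the closest 8 without induced 24 h replicate 1 and 1 of 8 by Spearman's rho.

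Families and partners of the 6 genes were then read from 6 lists, of which 102 genes were on the array and 84 were tested. The lists were chosen with earlier results of these data known. Their counts, set beside the shares over all tested genes, are therefore a description and no independent support. Limma called 34 of the 84 higher and 2 lower at 48 h than in uninduced cells, against 22.6% higher and 14.0% lower over all tested genes. The median difference was 0.59 in the lists and 0.12 over all tested genes. Between 48 h and 72 h limma called 3 of the 84 higher and 1 lower, against 0.644% higher and 0.152% lower over all tested genes. The median was 0.00 against -0.03. In the account that follows each value for 48 h is against uninduced cells. The shares over all tested genes given here apply to the counts of each list.

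The natriuretic peptide and cGMP list, built around Npr2, had 24 genes on the array, of which 15 were tested. Limma called 9 of the 15 higher and 0 lower at 48 h, with a median of 0.92. The ligand Nppc, which encodes C-type natriuretic peptide, was at 2.04 to 23.3 and below the array median on all 12 arrays. The receptor Npr1, for the atrial and brain natriuretic peptides, differed by -0.25 ± 0.30 (limma adjusted p = 0.554). Its signals were 25.3, 25.5 and 18.8 in uninduced cells, 69.8, 28.6 and 33.3 at 24 h, 9.26, 25.8 and 17.6 at 48 h, and 10.0, 1.29 and 14.4 at 72 h, so that its 24 h arrays lay above all others, by 0.55 ± 0.30 against uninduced cells (limma adjusted p = 0.264). The clearance receptor Npr3, at 1.16 to 27.6, was too dim to be tested.

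Both cGMP-dependent kinases rose. Prkg1 signals were 12.4 to 27.9 in uninduced cells, 16.2 to 32.3 at 24 h, 59.7 to 103 at 48 h and 287 to 321 at 72 h. Its groups did not overlap from 24 h on, and it rose by 1.54 ± 0.26 at 48 h (limma adjusted p = 0.000546) and by a further 1.71 ± 0.26 from 48 h to 72 h (limma adjusted p = 0.00699). The later rise was no longer called without induced 48 h replicate 3 (1.53 ± 0.28, limma adjusted p = 0.0507), with a pseudocount of 1 (1.89, limma adjusted p = 0.107) and without the 4 arrays numbered 3 (1.49, limma adjusted p = 0.124), 3 of 23 alternatives. Prkg2 rose by 2.40 ± 0.38 at 48 h (limma adjusted p = 0.000408) and differed by 0.29 ± 0.38 after that (limma adjusted p = 1).

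Phosphodiesterases, which break down cyclic nucleotides, were among the called genes of this list. Pde5a, specific for cGMP, rose by 2.62 ± 0.42 (limma adjusted p = 0.000405) and Pde10a by 2.30 ± 0.32 (limma adjusted p = 0.000149). Pde9a, also specific for cGMP, was at 96.8 to 155 at 48 h and at 28.0 to 47.8 at 72 h, and fell by 1.22 on the log2 scale over that interval (SE 0.24, limma adjusted p = 0.0347). That fall was not called in 11 of 22 alternatives, among them 8 that each left out a single array, with limma adjusted p values up to 0.508.

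**Figure D4:**
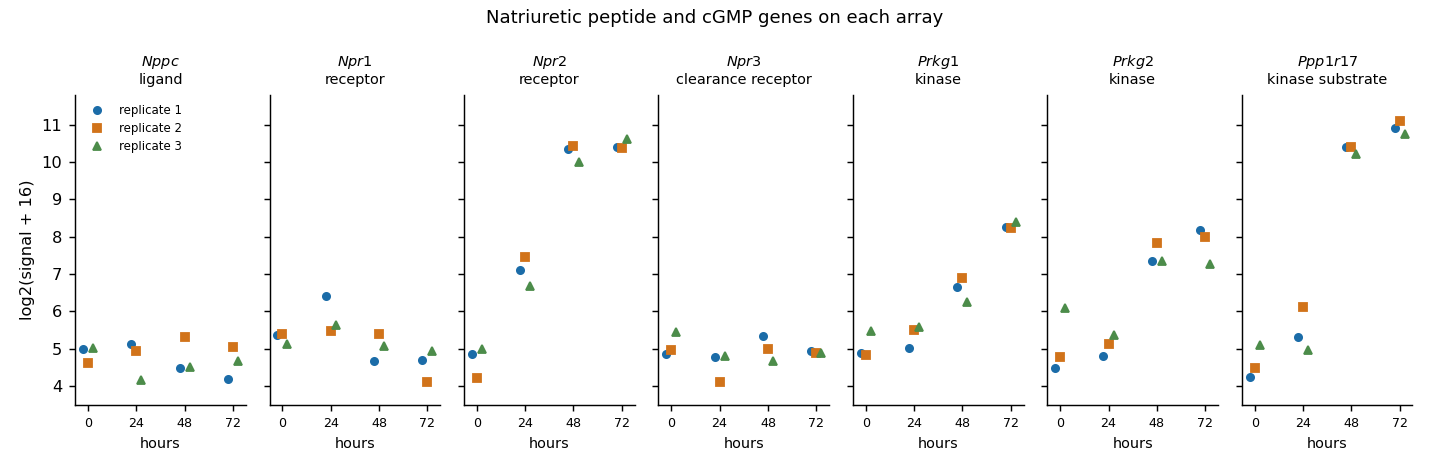
Log2(signal + 16) on each array against hours of induction for Npr2, the kinase substrate Ppp1r17 and 5 genes of the natriuretic peptide and cGMP list. Nppc and Npr3 stayed near the floor and Npr1 was at 69.8 or below, while Npr2 and Ppp1r17 were high at 48 h and Prkg1 was higher at 72 h (287 to 321 in signal) than at 48 h (59.7 to 103).

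Of the pleiotrophin and midkine list, built around Ptn, 16 of 18 genes were tested and limma called 9 higher and 1 lower at 48 h, with a median of 1.02. Mdk (midkine), the other member of the ligand family, rose by 2.48 ± 0.33 (limma adjusted p = 0.000113), from 950 to 1370 in uninduced cells to 6010 to 8410. The receptor phosphatase Ptprz1 rose by 1.84 ± 0.26 (limma adjusted p = 0.000179) and the receptor kinase Alk differed by 0.50 ± 0.24 (limma adjusted p = 0.134). The largest rises were those of the proteoglycan Gpc2, by 3.24 ± 0.30 (limma adjusted p = 6.43e-06), and of the co-receptor Nrp1, by 3.17 ± 0.43 (limma adjusted p = 0.000116). The proteoglycan Sdc4 was the gene that fell, by 1.18 on the log2 scale (SE 0.39, limma adjusted p = 0.0306), a call lost in 4 of 23 alternatives. From 48 h to 72 h limma called 0 of the 16.

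Of the RGS and Gi/Gq alpha subunit list, built around Rgs4, 20 of 26 genes were tested and limma called 9 higher and 0 lower at 48 h, with a median of 0.66. Rgs16 gave 22.6 to 25 before induction, 295 to 875 at 24 h, 260 to 395 at 48 h and 118 to 216 at 72 h. Its 24 h arrays already lay above all uninduced arrays, and its 48 h rise was 3.05 ± 0.36 (limma adjusted p = 4.17e-05). Its later difference of -0.78 ± 0.36 did not pass (limma adjusted p = 0.574). Gnao1, the alpha subunit of the neuronal Go protein, rose by 1.96 ± 0.40 (limma adjusted p = 0.00206), Rgs3 by 1.94 ± 0.26 (limma adjusted p = 9.8e-05) and Rgs2 by 1.58 ± 0.33 (limma adjusted p = 0.0026). Gnai2 differed by 0.71 ± 0.46 (limma adjusted p = 0.256) and Rgs5 was too dim to be tested. From 48 h to 72 h Rgs7 was the gene called, with a rise of 1.27 ± 0.24 (limma adjusted p = 0.0261) that was lost in 9 of 22 alternatives, among them the omission of any 1 of the 6 arrays compared.

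Of the list of catalytic subunits and inhibitors of phosphatases 1 and 2A, built around Ppp1r17, 19 of 20 genes were tested and limma called 2 higher and 1 lower at 48 h, with a median of 0.05. The inhibitor Ppp1r14a rose by 3.57 ± 0.34 (limma adjusted p = 8.11e-06), from 96.3 to 130 in uninduced cells to 1320 to 1590. Ppp1r14c rose by 0.96 ± 0.23 (limma adjusted p = 0.00596). Arpp19, which inhibits phosphatase 2A, fell by 1.04 on the log2 scale (SE 0.24, limma adjusted p = 0.00484), but the mean over all its probe sets gave 0.20. The catalytic subunit Ppp1ca differed by -0.38 ± 0.22 (limma adjusted p = 0.2), and the inhibitor Ppp1r1b was too dim to be tested. Ppp1r1c was at 12.5 to 46.0 at 48 h and 224 to 270 at 72 h, a rise of 2.64 ± 0.30 (limma adjusted p = 0.00179). That call was lost in 1 of 23 alternatives, without the 4 arrays numbered 3 (2.55, limma adjusted p = 0.1).

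Of the RUFY family and Rufy3 partners 7 genes were on the array, and limma called 3 higher and 0 lower at 48 h, with a median of 0.68. Rufy1 differed by -0.10 ± 0.25 (limma adjusted p = 0.785) and Rufy2 by 0.68 ± 0.35 (limma adjusted p = 0.143). The motor adaptor Spag9 rose by 2.62 ± 0.56 (limma adjusted p = 0.00309) and the small GTPase Rap2a by 1.35 ± 0.26 (limma adjusted p = 0.0014). Rap2c rose by 0.88 ± 0.31 (limma adjusted p = 0.0441), a call lost in 12 of 23 alternatives.

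Of the TOX family and Tox3 partners 7 genes were tested, and limma called 2 higher and 0 lower at 48 h, with a median of 0.55. Cited1, a transcriptional co-activator, rose by 2.14 ± 0.37 (limma adjusted p = 0.0007) and Tox by 1.14 ± 0.35 (limma adjusted p = 0.0236, lost in 4 of 22 alternatives). Tox2 differed by 0.55 ± 0.26 (limma adjusted p = 0.113) and Tox4 by 0.10 ± 0.27 (limma adjusted p = 0.803). From 48 h to 72 h limma called 0 genes in this list and 0 in the RUFY list.

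**Figure D5:**
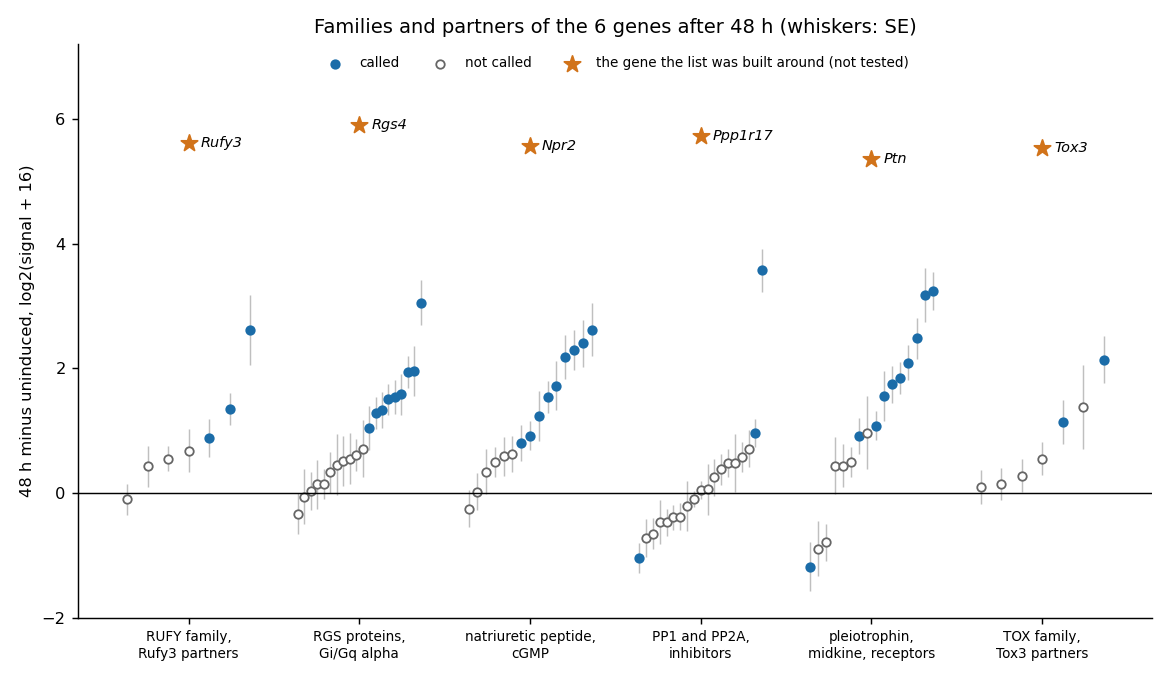
Difference between 48 h and uninduced cells in log2(signal + 16) for the 84 tested genes of the 6 lists, each gene a circle with a whisker of 1 SE, filled where limma called it. Stars give the gene each list was built around, at 5.35 to 5.90, above every circle, of which the highest is Ppp1r14a at 3.57. The starred genes were chosen for large 48 h rises, so their place at the top follows largely from the choice.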

How the data were processed

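RNA from 12 samples was measured on Affymetrix arrays. Per the submitters' processing notes the deposited values, linear intensity with 1 signal a probe set, were made by the authors with MAS5; the sources used here give neither its version nor its settings. The trimmed mean (2% cut at each end) was 150 on every array, and the authors' scaling was kept. Of the probe sets, 64 were controls, 34945 had 1 gene symbol in the platform annotation, 932 several and 9160 none; 34741 of the 34945 matched the GRCm38.p6 gene table by Entrez identifier, with 0 symbols changed.

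A gene's brightest probe set was tested where it exceeded its array's median (percentile 50) on 3 arrays of any group, and 11806 genes passed. The log2(signal + 16) values of the 12 arrays entered 1 linear model with 4 group terms in limma 3.58.1 (R 4.3.3; lmFit, contrasts.fit, eBayes with an intensity trend), with two-sided tests adjusted by Benjamini-Hochberg over all tested genes. The script was tested on simulated data. Tables and figures used Python 3.11.15, pandas 2.3.3, numpy 2.4.6 and matplotlib 3.10.9.

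The 6 genes, the lists of their families and partners and the comparisons were chosen with earlier results of these data known. From each list the text names the called genes with the 3 largest rises and the 2 largest falls at 48 h and with the largest of each from 48 h to 72 h, a set of receptors, ligands and relatives whatever they did, and the 8 genes of most similar course. Members were left out of their own lists.

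Alternatives were other pseudocounts, filters, quantile normalization, the mean of all probe sets, only the arrays compared, array weights, a replicate block and leaving out each array. Added after seeing the data were a filter on any 3 arrays and the omission of the 4 arrays numbered 3. Replicate numbers in the labels were checked for pairing through the correlation of same-numbered arrays' deviations from their group means. For 72 h and 48 h these were 0.23, 0.421 and 0.577, with -0.479 to 0.322 for differently numbered arrays. For 48 h and uninduced cells they were 0.145, 0.2 and 0.169, with -0.197 to 0.019 for differently numbered arrays. For 72 h and 24 h they were 0.101, 0.0308 and 0.263, with -0.223 to 0.118 for differently numbered arrays. The fit behind the calls had no term for the numbers, and all its tests were unpaired. The replicate block was an alternative only.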

Additional observations from a re-analysis of the deposited data

How the results depend on the processing

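The calls of the 6 genes for 72 h against 24 h held under all 23 alternatives, with the values of Rufy3 between 3.48 (mean of all probe sets) and 7.23. For 72 h against 48 h Rufy3 passed with a pseudocount of 64 (1.22), with only the 6 arrays compared (1.25) and with array weights (1.12), and Ppp1r17 with only the 6 arrays compared (0.59) and with array weights (0.70). The members called higher were then 1, 2 and 2 in place of 0. The cause was not tested. The estimation of array weights stopped before convergence, which limits that alternative. Leaving out each array in turn gave 0.95 to 1.42 for Rufy3 and 0.50 to 0.67 for Ppp1r17, and called neither.

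With the replicate block, Rufy3 gave 1.25 (limma adjusted p = 0.272) and Ppp1r17 0.59 (limma adjusted p = 0.585) for 72 h against 48 h, and 111 genes were called in place of 94. The block changed no call of the 6 genes. In the comparison of 72 h with 24 h, Tox3 had a limma adjusted p of 0.000328 with the block.

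The count of list genes higher at 48 h went from 34 to 17 with a filter at percentile 75, which left 49 of them tested. The count lower at 48 h (2) became 4 with quantile normalization, 9 with only the arrays compared, 9 with array weights and 0 without the 4 arrays numbered 3, and 1 to 9 on leaving out single arrays, with 9 without induced 24 h replicate 1. From 48 h to 72 h the count of list genes higher (3) became 1 with a pseudocount of 1, 15 with array weights, 0 without the arrays numbered 3 and 1 to 5 on leaving out single arrays. The count lower (1) became 0 with a pseudocount of 1, no filter, a filter at percentile 75 or without the arrays numbered 3, 2 with only the arrays compared, 9 with array weights and 0 to 2 on leaving out single arrays. Arpp19 turned from -1.04 to 0.20 with the mean of all probe sets.

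Over all tested genes the count called between 48 h and 72 h went from 94 to 485 without induced 24 h replicate 1, to 2549 with array weights and to 0 without the arrays numbered 3. Quantile normalization moved the median of all genes from 0.118 to -0.028 at 48 h against uninduced cells and from -0.011 to -0.14 at 72 h against 24 h. Groups of 3 arrays, and signals near the floor before induction, limit the precision of small differences.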
